A study of Rattus norvegicus with 25 samples.

Results

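The 5 genes described here are the makers of GABA and the markers of 3 classes of interneuron in rat hippocampus. They were chosen by identifier, as the rows ENSRNOG00000000007 (Gad1), ENSRNOG00000018200 (Gad2), ENSRNOG00000001837 (Sst), ENSRNOG00000006471 (Pvalb) and ENSRNOG00000019321 (Cck), and make 5 of the 32623 genes in the tables. All 5 identifiers were present in all 25 libraries and all 5 genes passed the filter on low counts, which kept 13908 genes.

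Poly-A RNA was sequenced from the hippocampus of 19 male Sprague Dawley rats in 25 libraries, 1 animal to a sample. The forced swim test (FST), in which a rat is placed in a cylinder of water it cannot leave, served as the acute stressor, with a pretest on the day before. The 20-m group held 7 rats decapitated 20 min after the test, the 24-h group 6 rats decapitated 24 h after it, and the control group 6 rats that were not swum. No group carried a transgene or drug treatment. The labels name 5 batches. Each group had 3 rats in Batch 1. In Batch 2 the swum groups had 3 rats each and control had 1. Rat 10 of the 20-m group and control rats 21 and 27 were run 3 times, as Batches 3 to 5, and their runs were summed, so these batches held no rat of the 24-h group.

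GABA is the main inhibitory transmitter of the brain and is made from glutamate by the glutamate decarboxylases that Gad1 and Gad2 encode. GAD67, the product of Gad1, makes most of the GABA of the cell body, and GAD65, the product of Gad2, is concentrated at nerve terminals. Hippocampal interneurons are commonly sorted by what else they make: somatostatin (Sst), a peptide of cells that contact dendrites, parvalbumin (Pvalb), a calcium-binding protein of fast-spiking basket and axo-axonic cells, or cholecystokinin (Cck), a peptide of another class of basket cell that is also transcribed in some excitatory neurons. In bulk tissue, a change in the number of cells of a class and a change in RNA per cell cannot be told apart. Marker lists of other cell types and other genes of the GABA and peptide pathways were not analysed here, because no table at hand pairs gene symbols with the identifiers in the files, and the tissue label was not checked against markers beyond these 5 genes.

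Libraries held 6217600 to 9032924 summed counts per rat, with medians of 7365258 in the control group, 7180334 in the 20-m group and 7143222 in the 24-h group. Rat 12 of the 20-m group and rat 13 of the 24-h group stood apart over all genes tested. Their root mean square distance from the mean of their batch was 0.517 and 0.425 in log2 CPM (counts scaled to library size), against 0.249 to 0.337 in the other 17 rats. Results are therefore given with and without these rats.

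The windows around the annotated starts of these genes differ in their letters. Windows of 250 bases before and 50 bases after the annotated start matched 4 of the 5 genes by symbol, in the GRCr8 assembly of RefSeq. Those of Sst, the gene with the smallest p-value described below, and of Gad1, to which it is compared within each rat, are printed 5′ to 3′, followed by that of Gad2. They were searched on both strands for the cAMP response element (CRE), TGACGTCA, an element long studied in the somatostatin promoter, and for its first 5 letters, TGACG, which the CRE itself contains on either strand. Capitals mark any match. The Sst window is chr11:90461296-90461595, the Gad1 window chr3:75777202-75777501 and the Gad2 window chr17:89671468-89671767, each on the plus strand.
Sst: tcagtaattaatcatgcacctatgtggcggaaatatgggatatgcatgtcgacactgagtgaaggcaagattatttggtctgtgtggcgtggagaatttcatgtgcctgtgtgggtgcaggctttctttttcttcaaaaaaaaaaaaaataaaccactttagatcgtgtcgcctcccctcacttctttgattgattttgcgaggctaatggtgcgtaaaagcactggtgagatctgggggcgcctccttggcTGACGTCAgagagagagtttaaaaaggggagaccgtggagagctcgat
Gad1: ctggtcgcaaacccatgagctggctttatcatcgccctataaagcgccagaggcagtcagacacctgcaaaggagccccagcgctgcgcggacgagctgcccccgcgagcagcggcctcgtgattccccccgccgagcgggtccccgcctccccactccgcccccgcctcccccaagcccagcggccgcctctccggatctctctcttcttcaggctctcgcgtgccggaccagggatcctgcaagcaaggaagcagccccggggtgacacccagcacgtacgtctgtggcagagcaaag
Gad2: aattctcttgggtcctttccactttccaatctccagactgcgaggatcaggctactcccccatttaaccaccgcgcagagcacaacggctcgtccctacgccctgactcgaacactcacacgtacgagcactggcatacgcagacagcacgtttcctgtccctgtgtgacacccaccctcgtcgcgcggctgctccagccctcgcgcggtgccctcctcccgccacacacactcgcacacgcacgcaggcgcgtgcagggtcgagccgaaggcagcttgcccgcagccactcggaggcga
The Sst window held 1 CRE, beginning 2 bases after the annotated start. Where transcription of Sst begins was not checked, so this position does not place the CRE inside or outside the transcribed part. The Gad1 and Gad2 windows held neither the CRE nor its first 5 letters. The Pvalb window held the 5 letters once and no whole CRE. Of 33469 windows of the same length, 1.83% held the CRE and 21.2% held the 5 letters. G and C made up 67.7% of the Gad1 window, 63.7% of Gad2 and 60.7% of Pvalb, against 45.7% of Sst. The share of G and C over all windows was not taken. These matches describe the letters in the windows, and binding was not measured.

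Level per length was taken as TPM, the share of a transcript among all transcripts, which allows genes of different length to be set side by side. Over the 19 rats the geometric mean was 93.3 TPM for Cck, 66.1 for Sst, 60.8 for Pvalb, 59.9 for Gad1 and 35.9 for Gad2. Cck was therefore the most abundant of the 5 transcripts and Gad2 the least. Cck exceeded Sst in 16 of 19 rats, by 0.50 ± 0.43 on the log2 scale (SD over 19 rats, exact sign-flip permutation test, 2-sided p = 0.000122). Gad1 exceeded Gad2 in 19 of 19 rats, by 0.74 ± 0.23 on the log2 scale (p = 3.81e-06 by the same exact test, the smallest it can give). With batches pooled, the neighbours in between did not differ beyond their spread. Sst exceeded Pvalb in 10 of 19 rats (0.12 ± 0.39 log2 TPM, exact p = 0.196) and Pvalb exceeded Gad1 in 11 of 19 (0.02 ± 0.69, exact p = 0.897). The order of Pvalb and Gad1 turned between Batch 1 and the other batches. The pooled test therefore cannot show that these genes had like levels.

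The place of Gad1 in this order depended on the batch. In Batch 1 Gad1 came next after Cck, at a geometric mean of 59.2 TPM over 9 rats, above Sst at 48.8 and Pvalb at 41.9. In Batch 2 it came next to last, at 58.5 TPM over 7 rats, below Sst at 90.5 and Pvalb at 84.1. The level of Gad1 was thus nearly the same in both batches, while the peptide and calcium-binding transcripts were higher in Batch 2. For Pvalb the batches did not overlap, with 9.13 to 18.8 CPM in the 9 rats of Batch 1 and 27.7 to 37.3 CPM in the 7 rats of Batch 2. The step from Batch 1 to Batch 2 in log2 CPM was 0.92, 1.16 and 1.00 for Pvalb in the 20-m, 24-h and control groups. It was 0.93, 0.76 and 0.93 for Sst, and 0.39, 1.02 and 0.94 for Cck. It was 0.04, -0.09 and 0.07 for Gad1, and 0.40, -0.21 and 0.20 for Gad2.

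**Figure D1:**
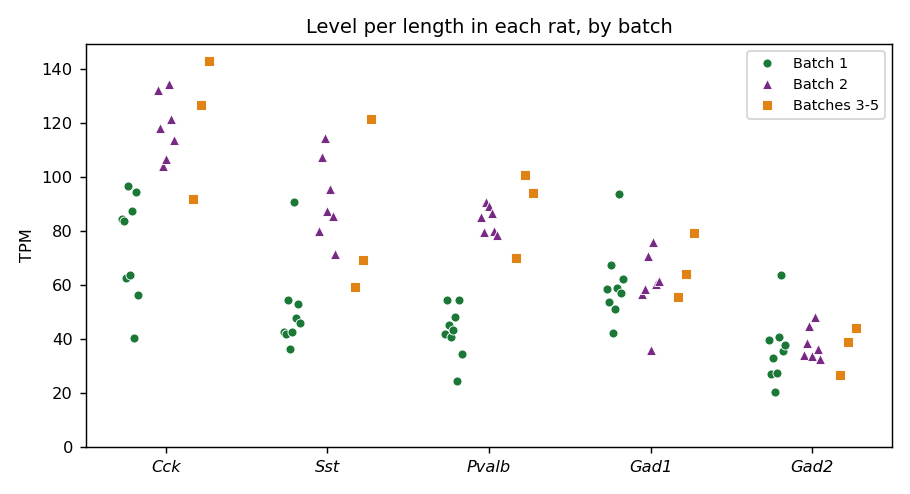
TPM of each gene (y axis) in each of the 19 rats, by batch, with genes in the order of their geometric mean. Circles are Batch 1, triangles Batch 2 and squares Batches 3 to 5. Pvalb in Batch 1 lies wholly below Pvalb in Batch 2, whereas Gad1 and Gad2 overlap between these batches.

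Pvalb, Sst and Cck, which stepped upward from Batch 1 to Batch 2 in every group, had shorter transcripts than Gad1 and Gad2. The steps of Gad1 and Gad2 differed in sign between groups. In the 20-m group the step of Gad2 (0.40) was close to that of Cck (0.39). The transcripts of Pvalb, Sst and Cck measure 537, 613 and 987 bases, shorter than most genes tested, of which 3.67%, 4.68% and 11.3% were shorter still. Gad2 measures 5561 bases and Gad1, a mixture of 4 annotated transcripts, a median of 3269 bases. The 1602 genes tested that are under 1000 bases had a median step from Batch 1 to Batch 2 of 0.28, 0.28 and 0.21 log2 CPM in the 20-m, 24-h and control groups. The 4547 genes over 3000 bases had -0.10, -0.15 and -0.04. The steps of Pvalb, Sst and Cck were larger than the median of short genes in each group, and the part of length in them was not tested. Batch was a term in the fits below, and the exact tests exchanged rats only within batches.

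The reads of these genes were assigned almost without ambiguity. Expected counts were whole in 25 of 25 libraries for Gad1, Gad2, Sst and Cck, and in 24 of 25 for Pvalb, and the posterior standard deviation of the count was 0 except for Pvalb, where it reached 0.08. Gad1 and Gad2, which encode related enzymes, therefore did not share reads in these tables. Among the 3 runs of each of rats 10, 21 and 27, the SD of log2 CPM was 0.08 for Gad1, 0.11 for Gad2, 0.19 for Sst, 0.16 for Pvalb and 0.10 for Cck. Counting error alone gives 0.08, 0.08, 0.18, 0.18 and 0.11 at the depth of those runs. Between animals that shared a group and a batch the SD was 0.27, 0.34, 0.30, 0.26 and 0.33. The rats thus differed from each other by more than repeated runs of a rat, and for Gad1 and Gad2 the spread between rats was over 3 times that between runs.

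The first comparison asked what had changed 20 min after the swim. Sst had the smallest p-value of the 5 genes and stood above control in the 20-m group, but it did not pass the test after adjustment over all genes. Gad1, Gad2, Pvalb and Cck differed from control by 0.01 to 0.15 on the log2 scale. Sst measured 16.8 to 35.2 CPM in the control group, with a median of 23.7 and a mean of 24.3 ± 7.14 (SD, n = 6). In the 20-m group it measured 17.4 to 49.4 CPM, with a median of 42.3 and a mean of 36.9 ± 13.3 (SD, n = 7). Of the 7 rats of the 20-m group, 5 lay above every control rat, and the other two, rats 1 and 2 of Batch 1, lay among the control rats of their batch at 17.4 and 18.6 CPM. The fitted log2 fold change of Sst was 0.52 (SE 0.15, 95% interval 0.20 to 0.83), or 1.43-fold with an interval of 1.15 to 1.78. Its unadjusted edgeR p was 0.00271 and its adjusted p 0.454, which placed it at rank 81 of 13908 genes. Without rats 12 and 13 the log2 fold change was 0.53 (edgeR p = 0.00336, adjusted p = 0.317).

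**Figure D2:**
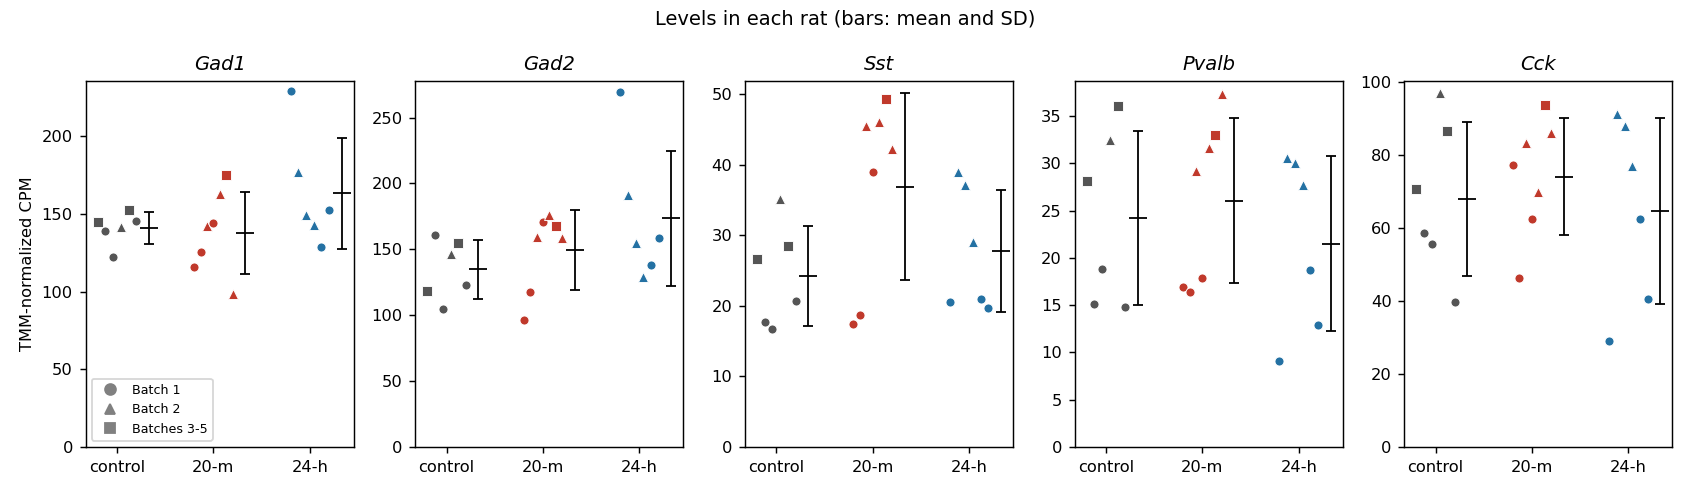
TMM-normalized CPM (y axis, from 0) of each gene in the control, 20-m and 24-h groups, with 1 point per rat and the mean and SD beside the points. Circles are Batch 1, triangles Batch 2 and squares Batches 3 to 5. Sst of the 20-m group reaches 49.4 CPM against 35.2 in the highest control rat, and rat 13 gives the highest point of Gad1 and Gad2 and the lowest of Pvalb and Cck.

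With labels exchanged only within batches, the 20-m group exceeded control in Sst by 0.46 log2 CPM (exact permutation test, 2-sided p = 0.025, 240 arrangements, smallest possible p 0.00417). Batches 1 and 2 each gave a difference of 0.34, that of Batch 2 against 1 control rat. Batches 3 to 5 gave 0.83, which rests on 1 rat of the 20-m group and 2 control rats. The value of Batch 1 rests on rat 6, at 39.1 CPM. Without rat 6, a setting chosen after seeing the data, Batch 1 gave -0.024 and the batches together 0.30 (exact permutation p = 0.05, 120 arrangements). After each rat's median deviation over the 500 genes nearest to Sst in transcript length was subtracted, a step chosen after seeing the data, the difference was 0.41 and the exact permutation p rose to 0.075. Genes under 1000 bases had a median difference of 0.03 in the same comparison, against -0.01 for genes over 3000 bases. Sst had 120 to 361 counts per rat. The exact permutation p-values of the other 4 genes in this comparison were 0.483 to 0.896.

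The enzymes and the other markers at 20 min are described by their ranges. Gad1 measured 123 to 153 CPM in control and 98.5 to 175 in the 20-m group, with medians of 143 and 142. The 20-m rats thus spread on either side of the control rats. The log2 fold change of Gad1 was 0.01 (SE 0.13, 95% interval -0.26 to 0.28, edgeR p = 0.935, adjusted p = 0.993), and its sign was not stable across settings. Gad2 measured 105 to 161 CPM in control, with a median of 134, and 96.4 to 176 in the 20-m group, with a median of 159. Of the 7 rats of the 20-m group, 3 lay above every control rat in Gad2 and 1 lay below all of them. The log2 fold change of Gad2 was 0.15 (SE 0.18, edgeR p = 0.403, adjusted p = 0.899). Pvalb measured 14.8 to 36.1 CPM in control, with a median of 23.5, and 16.4 to 37.3 CPM in the 20-m group, with a median of 29.3. Its log2 fold change was 0.04 (SE 0.12, edgeR p = 0.771, adjusted p = 0.970). Cck measured 39.6 to 96.8 CPM in control, with a median of 64.6, and 46.3 to 93.6 in the 20-m group, with a median of 77.3. Its log2 fold change was 0.09 (SE 0.17, edgeR p = 0.577, adjusted p = 0.938). The intervals leave room for changes of Gad2 up to 1.44-fold and of Cck up to 1.36-fold.

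Of the 5 genes, 0 passed an adjusted p under 0.05 in the 20-m group, against 0.0431% of all genes tested, and 1, Sst, had an unadjusted edgeR p under 0.05, against 7.55% of all genes. All 5 fitted values were above 0, though that of Gad1 was at 0.01 and turned below 0 under several settings, with a median log2 fold change of 0.09, where the median of all genes was -0.0014 and their median absolute value 0.093.

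The second comparison asked what differed 24 h after the swim, with the same control rats as before. Gad1 and Gad2 had the largest differences, both upward, but their size depended on rat 13, and neither passed the test. Gad1 measured 129 to 229 CPM in the 24-h group, with a median of 151 and a mean of 163 ± 35.8 (SD, n = 6), against 141 ± 10.1 in control (SD, n = 6). Rat 13 held the highest value and the next highest rat stood at 177, while rat 18 lay within the control range at 129. With batches pooled, 3 of 6 rats of the 24-h group lay above all control rats in Gad1. Against control rats of their own batch 5 of 6 did, where Batch 2 held 1 control rat. The log2 fold change of Gad1 was 0.30 (SE 0.14, 95% interval 0.00 to 0.59, edgeR p = 0.0498, adjusted p = 1.00). Gad2 measured 129 to 269 CPM in the 24-h group, with a median of 157. Its mean was 174 ± 51.5 (SD, n = 6) against 135 ± 22.4 in control (SD, n = 6), and here too rat 13 was highest and the next rat stood at 191. The same counts for Gad2 were 2 of 6 and 3 of 6. The log2 fold change of Gad2 was 0.39 (SE 0.19, 95% interval -0.01 to 0.79, edgeR p = 0.0562, adjusted p = 1.00). Without rat 13 alone the log2 fold change fell to 0.14 for Gad1 and 0.16 for Gad2 (edgeR p = 0.251 and 0.307), and without rats 12 and 13 to 0.11 and 0.16 (edgeR p = 0.243 and 0.316).

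Pvalb and Cck, on the other hand, were lower in the 24-h group than in control by amounts within the spread. Pvalb measured 9.13 to 30.6 CPM in the 24-h group, with a median of 23.2, and its log2 fold change was -0.20 (SE 0.14, edgeR p = 0.162, adjusted p = 1.00). Cck measured 29.0 to 91.2 CPM, with a median of 69.7, and its log2 fold change was -0.12 (SE 0.18, edgeR p = 0.527, adjusted p = 1.00). The lowest value of each gene was that of rat 13, and without rat 13 the values were -0.08 for Pvalb and 0.02 for Cck, so the sign of Cck turned. Sst measured 19.7 to 39.0 CPM in the 24-h group, with a median of 25.1 and a mean of 27.8 ± 8.70 (SD, n = 6). These rats lay mostly among the control rats (log2 fold change 0.16, SE 0.16, edgeR p = 0.341, adjusted p = 1.00). Exact permutation tests within batches gave p-values of 0.2 to 0.375 for the 5 genes, with a smallest possible p of 0.0125 over 80 arrangements. At an adjusted p under 0.05, 0 of the 5 genes and 0% of all genes tested were called. At an unadjusted edgeR p under 0.05, 1 gene, Gad1, was called, against 3.17% of all genes. The median log2 fold change of the 5 genes was 0.16, and that of all genes -0.0014. The median absolute values were 0.20 and 0.081.

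**Figure D3:**
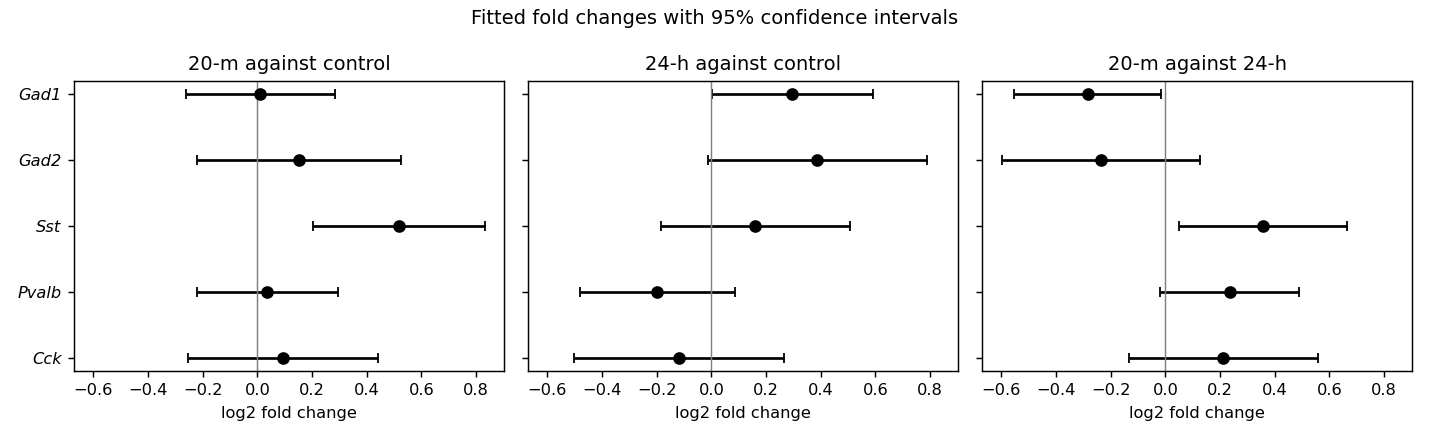
Fitted log2 fold change (x axis) of each gene in the 3 comparisons, with 95% confidence intervals as bars. The interval of Sst lies above 0 in the 20-m group against control (0.20 to 0.83) and in the 20-m against the 24-h group (0.05 to 0.67), that of Gad1 touches 0 at 24 h, and no gene passed an adjusted p under 0.05.

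The third comparison set the FST groups against each other, which share Batches 1 and 2 in equal numbers and each enter a comparison above. Sst was higher and Gad1 lower in the 20-m group than in the 24-h group. The log2 difference of Sst was 0.36 (SE 0.15, 95% interval 0.05 to 0.67, edgeR p = 0.0256, adjusted p = 0.294). With batches pooled, 5 of 7 rats of the 20-m group lay above all 6 rats of the 24-h group and the other two, rats 1 and 2, lay below all of them. In the batches that hold both groups, 4 of 6 rats of the 20-m group exceeded every 24-h rat of their own batch. The log2 difference of Gad1 was -0.29 (SE 0.13, 95% interval -0.55 to -0.02, edgeR p = 0.0384, adjusted p = 0.336). With rats 12 and 13 left out, Sst was at 0.39 (edgeR p = 0.032) and Gad1 at -0.06 (edgeR p = 0.451). Without rat 6 alone, Sst was at 0.21 (edgeR p = 0.0971). Its difference within batches was then 0.12, with Batch 1 at -0.18 (exact permutation p = 0.4). Less genes of like length, with rat 6 kept, the within-batch difference of Sst was 0.20 (exact permutation p = 0.38). Gad2 differed by -0.24 (edgeR p = 0.189), Pvalb by 0.23 (edgeR p = 0.069) and Cck by 0.21 (edgeR p = 0.216). These values were -0.04, 0.08 and 0.09 without rats 12 and 13, and without rat 13 alone -0.04, 0.13 and 0.09. Exact permutation tests within batches gave p = 0.2 for Sst and p = 0.105 for Gad1. At an adjusted p under 0.05, 0 of the 5 genes were called, against 0.036% of all genes tested. At an unadjusted edgeR p under 0.05, 2 of the 5, Gad1 and Sst, were called, against 13.8% of all genes. The median log2 difference of the 5 genes was 0.21 and that of all genes -0.0016, with median absolute values of 0.24 and 0.12.

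A ratio of TPM values within a rat does not depend on how libraries are scaled to each other, so each marker was also set against Gad1 of the same rat. Relative to Gad1, Sst in the 20-m group exceeded control in every batch. It was 0.726 to 1.41 in the control group, with a median of 0.938 and a mean of 0.979 ± 0.26 (SD, n = 6). In the 20-m group it was 0.835 to 2.43, with a median of 1.54 and a mean of 1.52 ± 0.555 (SD, n = 7). All 7 rats of the 20-m group exceeded every control rat of their own batch, which in Batch 2 was 1 rat. With batches pooled the groups overlapped, and 5 of 7 lay above all control rats. In rats 1 and 2 of Batch 1, Sst itself lay among the control rats, at 17.4 and 18.6 CPM against 16.8 to 20.7. Their Gad1 was 116 and 126 CPM, against 123 to 145 in those control rats. Rat 12, with the highest ratio, had the lowest Gad1 of all rats, at 98.5 CPM. The ratios thus depended on Gad1 as well as on Sst. Between the 20-m group and control the ratio differed by 0.45 on the log2 scale. Batch 1 gave 0.42, Batch 2 gave 0.45, and Batches 3 to 5 gave 0.52. Without rat 6, whose ratio was the highest of the 20-m rats in Batch 1, that batch gave 0.13 and the batches together 0.32 (exact permutation p = 0.00833, the smallest that 120 arrangements allow). The exact permutation test within batches gave a 2-sided p of 0.00417, the smallest that 240 arrangements allow. After Benjamini-Hochberg adjustment over the 12 ratio tests it was 0.05, which is not under 0.05. The smallest possible p cannot adjust below 0.05 over 12 tests unless other tests also give small p-values. Without rats 12 and 13 the difference was 0.41 (exact p = 0.00556, again the smallest possible). With the deviation of genes of like length subtracted from both genes it was 0.40 (exact p = 0.00417). As Sst was set against Gad1 in the same rats, this result is not independent of the difference in Sst above.

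At 24 h the ratio of Sst to Gad1 was 0.508 to 1.42, with a median of 1.05 and a mean of 1.00 ± 0.343 (SD, n = 6), and only its ends passed those of control. It was higher in the 20-m than in the 24-h group by 0.58 on the log2 scale (exact permutation p = 0.015, adjusted over the 12 tests 0.09). Without rats 12 and 13, whose ratios are 2.43 and 0.508, that difference was 0.38 (exact p = 0.07). The ratio of Gad2 to Gad1 had the tightest spread. It was 0.559 ± 0.0803 in control (SD, n = 6), 0.642 ± 0.148 at 20 min (SD, n = 7) and 0.613 ± 0.0489 at 24 h (SD, n = 6), with exact permutation p-values of 0.325 to 0.67. Ratios of Pvalb and Cck to Gad1 spread more widely, and their exact permutation p-values were 0.09 or more in each comparison.

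**Figure D4:**
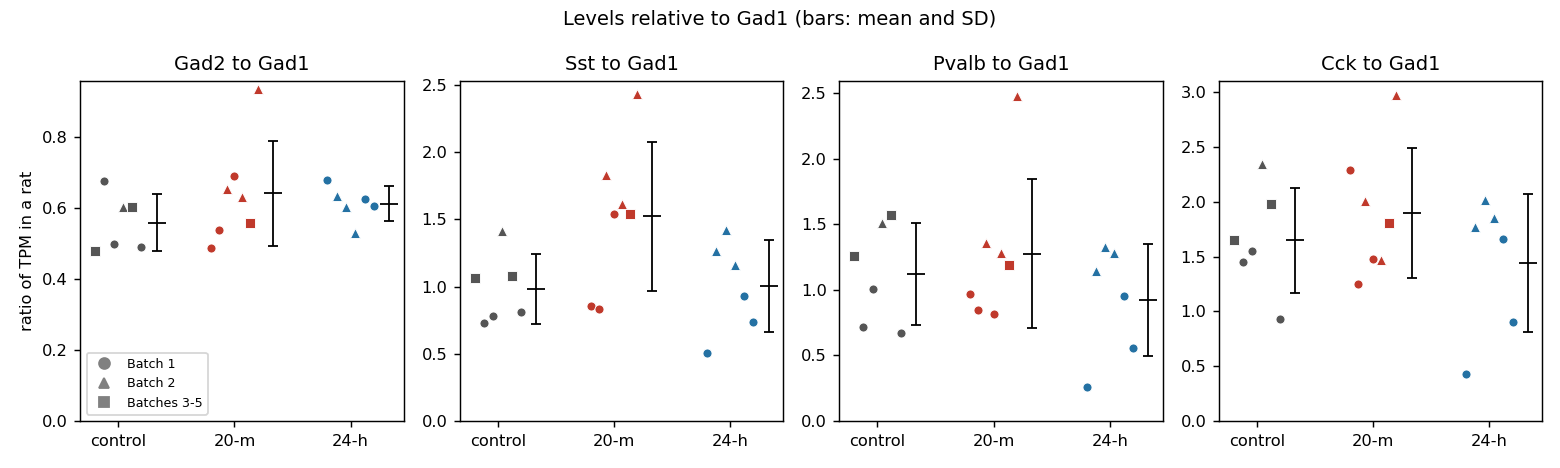
Ratio of the TPM of Gad2, Sst, Pvalb and Cck to that of Gad1 in the same rat (y axes, from 0) in the control, 20-m and 24-h groups, with 1 point per rat and the mean and SD beside the points. Marker shape gives the batch. In the panel for Sst each 20-m point lies above all control points of the same shape, with 1 control point in Batch 2. The highest 20-m point of each panel is rat 12, which has the lowest Gad1.

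Rats of the same group and batch also varied together. Gad1 and Gad2, whose products each make GABA, rose and fell together between rats. Over 17 rats in 6 combinations of group and batch, centred log2 CPM gave a Pearson's r of 0.753 (exact permutation within group and batch, p = 0.000322, adjusted over 10 pairs 0.00322) and a Spearman's rho of 0.794 (exact permutation p = 0.000193, adjusted 0.00193). The relation held without rats 12 and 13, the rats farthest from the median of Gad1, with r = 0.829 over 15 rats (exact permutation p = 0.00347, adjusted 0.0347). Within Batch 1 r was 0.890 over 9 rats (exact permutation p = 0.00926) and within Batch 2 it was 0.561 over 6 rats (exact permutation p = 0.0833). With genes of like length subtracted r was 0.818 (exact permutation p = 0.000514). In residuals after group and batch over all 19 rats, a description with no test, r was 0.73. Among 13907 other genes Gad2 then ranked 69th for likeness to Gad1, and Gad1 ranked 40th for likeness to Gad2.

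The correlations of Sst with the decarboxylases were positive too. Its r was 0.384 with Gad1 (exact permutation p = 0.00772, adjusted 0.0386), where rho was 0.583 (exact permutation p = 0.0194, adjusted 0.0968). Without rats 12 and 13 that r was 0.654 and its adjusted p 0.0897 by the same exact permutation, and it was 0.365 in Batch 1 and 0.556 in Batch 2. With Gad2, Sst gave r = 0.587 and rho = 0.539 (exact permutation p = 0.0347 and 0.0572, adjusted 0.0868 and 0.143). That r was 0.732 without rats 12 and 13 (exact permutation p = 0.0411, adjusted 0.137), and it was 0.547 in Batch 1 and 0.889 in Batch 2. Whether these correlations differ from that of Gad1 with Gad2 was not tested.

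Pvalb and Cck, for their part, had an r of 0.776 with each other (exact permutation p = 0.0239, adjusted 0.0795) and a rho of 0.647 (exact permutation p = 0.0372, adjusted 0.124). They ranked 22nd (Pvalb among the genes most like Cck) and 45th (Cck among those most like Pvalb) of 13907 in the residuals. Both ran against Gad1, with r of -0.698 for Pvalb and -0.600 for Cck (exact permutation p = 0.0613 and 0.0739, adjusted 0.123 for each). These 3 values lost size without rats 12 and 13, to 0.624, -0.221 and -0.361. Without rats 13 and 19, the 2 farthest from the median of Pvalb, the r of Pvalb with Cck was 0.469 over 14 rats (exact permutation, adjusted p = 0.291). Rat 13 held 229 CPM of Gad1 and 269 of Gad2, the highest of all 19 rats, and 9.13 of Pvalb and 29.0 of Cck, the lowest. Rat 12 held the lowest Gad1, at 98.5 CPM, and the highest Pvalb, at 37.3. Over the 10 pairs, 2 passed an adjusted p under 0.05 for r, 1 for rho and 1 without rats 12 and 13, which was Gad1 with Gad2 each time it was 1.

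**Figure D5:**
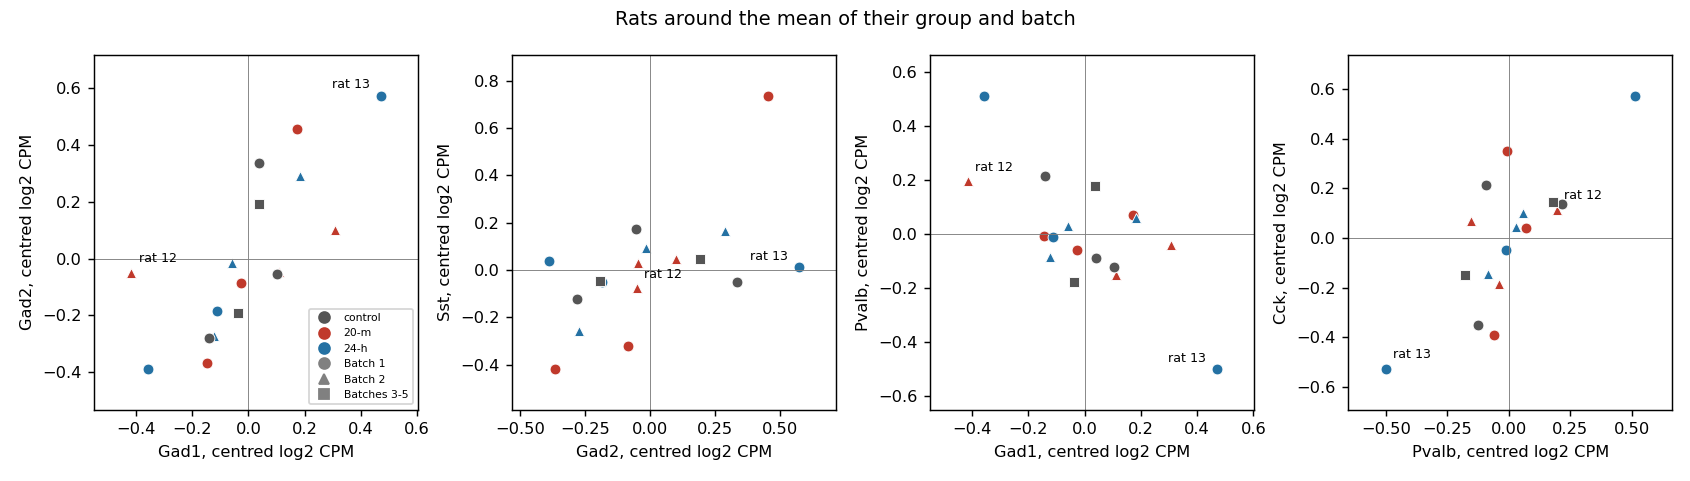
Log2 CPM of 4 pairs of genes in 17 rats, each centred on the mean of its group and batch (both axes). Colour gives the group, shape the batch, and rats 12 and 13 are named where they stand. Gad1 and Gad2 lie along a rising line with or without these rats (r 0.753 and 0.829), whereas the opposite course of Gad1 and Pvalb weakens from -0.698 to -0.221 without them.

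In the difference between short and long genes rat 12 stood outside the other rats, and rat 13 did not. The median of genes under 1000 bases less that of genes over 3000 bases, centred on group and batch, was 0.24 log2 CPM in rat 12 and 0.05 in rat 13, against -0.13 to 0.08 in the other 15 rats. The correlation of a rat's centred values with length across genes did not set rat 12 apart. Its rho was -0.154 in rat 12 and -0.061 in rat 13, against -0.158 to 0.183 in the other 15 rats. By both measures rat 13 lay within the range of the other 15 rats. What part length had in either rat was not tested beyond the subtraction of genes of like length.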

How the data were processed

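Hippocampal poly-A RNA of 19 rats was measured in 25 libraries. After trimming by AdapterRemoval V2 and alignment by STAR, the authors deposited RSEM expected counts, with no normalization or batch correction, for the Rnor 6.0 assembly and annotation release 93. The deposited TPM values are scaled by RSEM to a fixed total per library and per effective length. The deposited length and posterior standard deviation columns, treated as scores, gave transcript length and read ambiguity. No version of STAR or RSEM is stated in these sources. For their own tests the authors used TMM, voom, ComBat and limma.

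Groups, rats and batches came from the sample labels. The study's text counts rats at 20 min differently in its Results and Methods, and all 7 labelled rats were used. Rat numbers in the study's supplement also differ from the labels. Its list of reads holds no rat 6, 13 or 21 and gives rats 10 and 12 the same read counts. Its list of groups places rats 10 and 12 in the 24-h group. The labels were followed here. Runs of rats 10, 21 and 27 were summed (TPM averaged). Expected counts were rounded and genes kept by filterByExpr (minimum count 10, minimum total 15). Differences were tested by the quasi-likelihood method of edgeR after TMM, in 1 fit of all 19 rats with group and 3 batch levels as terms (14 residual degrees of freedom), with Benjamini-Hochberg adjustment over 13908 genes. The SE of a log2 fold change is its size over the root of F, and intervals are at 95%. Log2 CPM used a prior count of 2. Exact permutation tests exchanged rats within batches, or within group and batch for correlations. Comparisons share groups, so they are not independent, and counting intervals cover counting error only.

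The 5 genes, and the lists and tests around them, were chosen with earlier results of these data known. Every one of the 5 was described in every comparison, whatever its p-value. Their names come from the rule that chose them. The reference gene table lists all 5 symbols but no identifiers of the kind in the files, so the pairing was not checked against it, and coordinates are those of RefSeq's GRCr8 windows, not of the files' assembly. Alternatives were other scalings, filters, tests, batch terms, subsets of batches, runs, TPM with pseudocounts of 1 and 0.1, and each rat left out. Leaving out rats 12 and 13, leaving out rat 6 for Sst, and subtracting 500 genes of like length were added after seeing the data. Software was edgeR 4.0.16, DESeq2 1.42.0, limma 3.58.1 and sva 3.50.0 in R 4.3.3, and Python 3.11.15 with numpy 2.4.6, pandas 2.3.3, scipy 1.17.1 and matplotlib 3.10.9.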

Additional observations from a re-analysis of the deposited data

How the results depend on the processing

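No gene of the 5 passed an adjusted p under 0.05 in any comparison under any of the 17 other settings or the 19 fits without 1 rat. Sst in the 20-m group against control was 0.40 to 0.61 over the settings, with adjusted p from 0.116, and 0.37 to 0.60 without 1 rat, with an unadjusted p under 0.05 in 16 of 17 settings and 19 of 19 such fits. The exception was Batch 1 alone (0.44, edgeR p = 0.123). Less genes of like length, its exact permutation p within batches was 0.075, and without rat 6 the within-batch difference was 0.30 (exact permutation p = 0.05). Sst in the 20-m against the 24-h group was 0.21 to 0.44 without 1 rat, lowest without rat 6. There its unadjusted p was under 0.05 in 11 of 17 settings and in 17 of 19 fits without 1 rat. Gad1 between the FST groups was under 0.05 in 14 of 17 settings and 14 of 19 such fits. It was not without rats 12 and 13 (edgeR p = 0.451). At 24 h against control Gad1 was under 0.05 in 8 of 17 and 8 of 19, and Gad2 in 5 of 17 and 6 of 19.

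Gad1 in the 20-m group turned sign in limma voom (-0.0050), in voom with ComBat (-0.0037), with no batch term (-0.032), in Batch 1 alone (-0.080), in Batches 1 and 2 (-0.057), with the compared groups alone (-0.0022) and in TPM with either pseudocount (-0.050 and -0.052). Without 1 rat it ranged from -0.049 to 0.053, and less genes of like length its within-batch difference of -0.013 became 0.0086. Gad2 in the 20-m group was -0.018 in Batch 1 alone. Pvalb in the 20-m group was -0.0086 with the first run alone and -0.024 and -0.025 in TPM with pseudocounts of 1 and 0.1. Cck ranged from -0.010 to 0.16 in the 20-m group and from -0.23 to 0.021 in the 24-h group without 1 rat, and the latter was 0.018 without rats 12 and 13. The cause of these turns was not tested.

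Without rats 12 and 13 the log2 difference of Sst to Gad1 at 24 h turned from -0.14 to 0.0044, that of Pvalb to Gad1 at 20 min from 0.053 to -0.020, and that of Sst to Gad1 between the FST groups weakened from 0.58 to 0.38 (exact permutation p = 0.07). The correlation of Gad1 with Sst no longer passed as Spearman's rho (0.583), in log2 TPM (0.531) or without rats 12 and 13 (0.654). Correlations that had not passed turned sign: Gad2 with Pvalb (from -0.438 to 0.037 without rats 12 and 13), Gad2 with Cck (from -0.354 to 0.024 without rats 12 and 13 and 0.336 without the 2 rats farthest from the median of Gad2) and Sst with Cck (from -0.0059 to 0.019 without rats 12 and 13, 0.018 without the 2 farthest, 0.125 in log2 TPM). Centred by group alone, Sst with Cck was 0.666.

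The shared numbers in the labels mark 3 runs of the same rat, not pairs of animals across groups. With all 25 libraries and the replicate block (within-rat correlation 0.421), Sst in the 20-m group was 0.47 (limma adjusted p = 0.246), and no call on the 5 genes changed. Over all genes, those called in the 20-m group against control numbered 6 higher and 0 lower by edgeR, 19 and 9 by DESeq2, 20 and 18 with ComBat, 21 and 9 with the block, and 9 and 1 with no filter. Between the FST groups they were 5 and 0 by edgeR, 36 and 35 by DESeq2, 93 and 108 with ComBat, 17 and 20 with the block, and 9 and 2 with no filter. At 24 h against control they were 0 in every setting, and 441 genes had an unadjusted edgeR p under 0.05. Batches 3 to 5 hold no rat of the 24-h group, and Batch 2 holds 1 control rat, so the 24-h comparison rests mainly on Batch 1. Sst and Pvalb had the fewest counts, at 70 to 361 per rat.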
